A study of Mus musculus with 4 samples.

Results

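Cardiomyocyte nuclei of YAP5SA hearts were split by 4 genes that are high in part of the YAP5SA cardiomyocytes, and the nuclei with few or no transcripts of them are described here. A nucleus was kept if it had at least 500 detected genes and at most 5% of its unique molecular identifiers (UMIs, counted transcripts) from mitochondrial genes. It was taken as a cardiomyocyte if Ttn, Ryr2, Trdn, Ctnna3, Rbm20 and Tnnt2 together made up at least 0.8% of its UMIs, and as a member if Cemip, Col4a3, Col4a4 and Pak3 together made up under 0.05%. The rule took 6795 nuclei, 4187 from the YAP5SA HFD library and 2608 from the YAP5SA chow library, of 34165 nuclei within the quality limits in all 4 libraries and 18860 cardiomyocyte nuclei. The comparison nuclei were 3585 of the control HFD library and 3957 of the control chow library that passed the same conditions. The cardiomyocyte nuclei at or over the limit, called responding here, numbered 1694 in the YAP5SA HFD library and 2688 in the YAP5SA chow library. The working name of the members was non-responding cardiomyocytes. The values below go against that name in part, so they are called Cemip-low cardiomyocyte nuclei after the rule.

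The libraries came from whole hearts of wild-type mice at postnatal day 12, 1 library per group. YAP5SA hearts had received AAV9-cTnT-YAP5SA at postnatal day 7 and control hearts saline, with maternal chow or high-fat diet (HFD) for 5 days. The cardiac troponin T promoter is meant to limit expression of the cargo to cardiomyocytes, and does not set which cells the virus enters. The control was saline, so effects of the virus and of its cargo cannot be told apart. Diets were taken from the sample titles. The treatment labels name HFD for the YAP5SA chow library and chow for the control HFD library, and if they hold, vector and diet changed together in every comparison. The YAP5SA chow library had 7.44 CPM (UMIs of a gene scaled to a common library total) of Xist, against 2128 to 2421 CPM in the others. Xist is sex-linked, so on chow sex may differ along with the vector, and their effects cannot be told apart. The number of hearts behind each library is not known here. The libraries held 43408234 to 61191454 UMIs, and any 2 of them shared 11 to 34 cell barcodes.

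YAP is a transcriptional co-activator that binds TEAD factors on DNA, and the Hippo kinases LATS1 and LATS2 phosphorylate it and keep it out of the nucleus. YAP5SA carries serine-to-alanine changes at the phosphorylation sites and is therefore active whatever the Hippo signal. In the heart, YAP activity is known for cardiomyocyte growth and division around birth, and it declines as cardiomyocytes mature. An injected vector need not reach every cardiomyocyte, and the rule reads only 4 genes of the response, not the vector.

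The cardiomyocyte markers were in place. Ttn, which encodes the giant spring protein titin, had at least 1 UMI in 99.5% of Cemip-low nuclei on HFD and 99.6% on chow. Its summed level was 14432 and 14515 CPM in Cemip-low nuclei of the YAP5SA HFD and YAP5SA chow libraries, against 6970 and 7824 CPM in responding nuclei and 16292 and 17593 CPM in control nuclei of HFD and chow. In nuclei with macrophage markers (at least 0.5% of UMIs), which should lack it, Ttn had 155 to 358 CPM. The calcium release channel gene Ryr2 had 9766 and 11401 CPM in Cemip-low nuclei and 10511 and 11644 CPM in control nuclei, and Trdn, which anchors the release complex, had 4229 and 2752 CPM against 2396 and 2512 CPM. These 3 genes are part of the rule. Myh6, the adult alpha-myosin heavy chain, is not, and had 3212 and 3963 CPM in Cemip-low nuclei, 991 and 999 CPM in responding nuclei and 4663 and 5170 CPM in control nuclei. In Myh6, Cemip-low nuclei lay nearer to control nuclei than to responding nuclei.

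Markers of other heart cells were present in all sums. The 12 fibroblast markers summed to 1234 and 1060 CPM in Cemip-low nuclei, against 1420 and 839 CPM in control nuclei of HFD and chow. The 12 epicardial and Schwann cell markers summed to 26.3 and 39.3 CPM against 51.3 and 39.99 CPM, and the 6 erythroid markers to 115 and 235 CPM against 310 and 304 CPM. The 12 endothelial markers summed to 359 and 363 CPM against 572 and 309 CPM, the 12 macrophage markers to 386 and 309 CPM against 324 and 222 CPM, and the 12 mural markers to 481 and 498 CPM against 683 and 628 CPM. None of these markers was at 0 in any of the 4 sums. Fibroblast markers made up over 0.2% of UMIs in 10.6% and 7.86% of Cemip-low nuclei, and in 11.3% and 5.10% of control nuclei. Leaving out nuclei with over 0.2% of fibroblast, endothelial, mural and macrophage markers together left 3204 and 2121 Cemip-low and 2623 and 3305 control nuclei. Median depth was 4898 and 4649.5 UMIs per nucleus in Cemip-low nuclei of HFD and chow, 6234 and 5757 UMIs in responding nuclei, and 6515 and 6124 UMIs in control nuclei. The part of these differences in the results was not tested, beyond the values given with nuclei left out.

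Cemip-low nuclei made up 71.2% of cardiomyocyte nuclei in the YAP5SA HFD library (95% Clopper-Pearson interval 70.0 to 72.4%) and 49.2% in the YAP5SA chow library (47.9 to 50.6%), against 98.0% and 98.3% in the control HFD and control chow libraries. These shares were set by the rule and are a description, and the intervals here and below cover counting error only. No UMI of the 4 genes was found in 72.4% and 62.3% of the Cemip-low nuclei on HFD and chow, and in 77.1% and 79.3% of control nuclei. A shallow nucleus passes the limit more easily, and among nuclei with at least 4000 UMIs the shares were 66.9% and 44.1%. Just inside the limit, between 0.04 and 0.05% of UMIs, lay 123 and 124 nuclei of the YAP5SA HFD and YAP5SA chow libraries, and just outside it, up to 0.06%, 78 and 107. In both libraries these nuclei had a median of 2 UMIs of the 4 genes inside the limit and 3 outside. At such counts, whether the spread is continuous cannot be told.

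**Figure D1:**
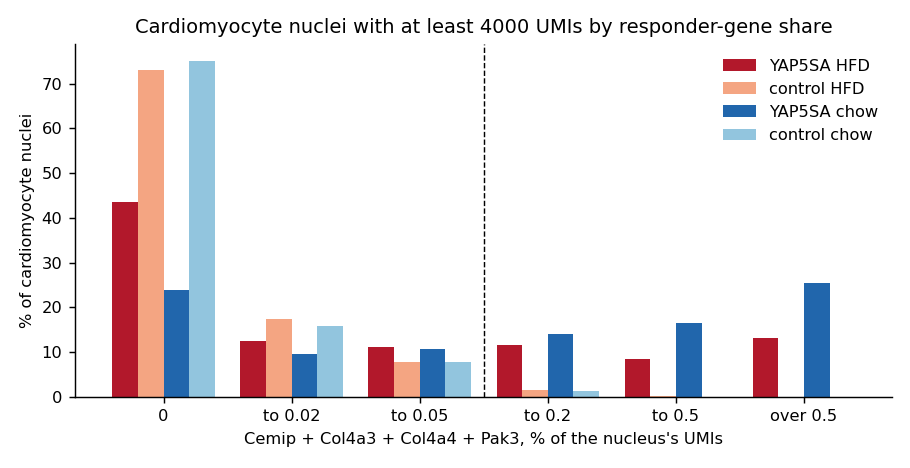
Share of the cardiomyocyte nuclei with at least 4000 UMIs (y axis, percent of the library's such nuclei) by the share of UMIs from Cemip, Col4a3, Col4a4 and Pak3 (x axis, upper bound of each class in percent, with 0 for no UMI), for the 4 libraries. The dashed line is the limit of 0.05%, and YAP5SA nuclei filled every class on both sides of it while few control nuclei lay to its right.

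Each library was summed over its Cemip-low or control nuclei, which held 26.3M and 15.5M UMIs in YAP5SA HFD and chow and 30.1M and 29.6M UMIs in control HFD and chow (M, mega). With 1 library per group there is no test within a diet, and folds are given with exact binomial 95% intervals. The only test set both YAP5SA sums against both control sums across diets, with edgeR's quasi-likelihood test and Benjamini-Hochberg adjustment over 17921 genes. It called 0 genes at an adjusted p under 0.05. The smallest adjusted p was 0.0602, and 63 genes were under 0.1. At an unadjusted p under 0.05 there were 1509 genes higher in YAP5SA (8.42% of those tested) and 1174 lower (6.55%). DESeq2's Wald test on the same sums called 395 genes raised (2.3% of 17207) and 254 lowered (1.48%). What follows is therefore given as levels and folds, none of which passed the edgeR test.

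Among 9040 genes with a mean of at least 10 CPM over the 4 sums, 475 (5.25%) were higher by 2-fold or more and 191 (2.11%) lower by 2-fold or more in YAP5SA Cemip-low nuclei on HFD. On chow, the counts were 316 (3.5%) and 113 (1.25%). A smaller fold of 1.5 was passed on HFD by 13.8% of genes upward and 7.1% downward, and on chow by 9.14% and 5.92%. Past 1.5-fold in the same direction on both diets were 305 genes higher (3.37%) and 174 lower (1.92%), and 81 (0.896%) and 36 (0.398%) were past 2-fold on both. The median gene had a log2 fold of 0.08 on HFD and 0.04 on chow. Higher genes made up 71.3% of those past 2-fold on HFD. Scaling by trimmed means (TMM) moved the median of all genes on HFD by -0.14, to -0.06, and that share to 54.1%.

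The clearest pattern was in 12 genes found low in YAP5SA cardiomyocyte sums of these libraries in earlier work on the same data. All 12 were at least 1.5-fold lower in Cemip-low nuclei than in control nuclei on both diets, against 1.92% of all genes, and 12 of 12 had an unadjusted p under 0.05 in edgeR (6.55% of all genes were lower at that level). Since the list was chosen on these libraries, its direction is not independent evidence. The median log2 fold was -1.48 on HFD and -1.13 on chow.

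Ppara, the nuclear receptor that turns on fatty acid use, had 114 and 133 CPM in Cemip-low nuclei of the YAP5SA HFD and YAP5SA chow libraries, 57.4 and 45.1 CPM in responding nuclei of the same libraries, and 367 and 276 CPM in control HFD and control chow. Responding nuclei were the lowest, and both Cemip-low sums lay under both control sums. The share of all genes with such a gap was not counted. The log2 fold was -1.69 on HFD (interval -1.75 to -1.63) and -1.06 on chow (-1.13 to -0.99), and over both diets -1.47 ± 0.20 (SE, n = 2 libraries per arm, edgeR adjusted p = 0.0935, DESeq2 adjusted p = 8.58e-07). Pde4d, a phosphodiesterase that breaks down cyclic AMP, had 1746 and 1290.2 CPM in Cemip-low nuclei, 557 and 355 CPM in responding nuclei, and 4021 and 3699 CPM in control nuclei. Its log2 fold was -1.20 on HFD and -1.52 on chow (edgeR adjusted p = 0.0935). Kcnn2, a calcium-activated potassium channel, had 343 and 401 CPM against 878 and 924 CPM. Both genes kept both YAP5SA sums under both control sums by more than 2-fold.

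Ckm, the muscle creatine kinase that buffers energy supply in mature muscle, had 32.6 and 33.9 CPM in Cemip-low nuclei against 84.2 and 67.9 CPM in control nuclei. Hopx, a homeodomain protein of maturing cardiomyocytes, had 44.5 and 127 CPM against 217 and 239 CPM, so its difference was 2.28 on the log2 scale on HFD and 0.91 on chow, lower in YAP5SA on both. Ush1c, which encodes the scaffold protein harmonin, had 77.6 and 85.4 CPM against 232 and 223 CPM (log2 fold -1.58 and -1.38, edgeR adjusted p = 0.0602). Hs3st5, a heparan sulfate sulfotransferase, had 33.1 and 18.9 CPM against 128 and 119 CPM (log2 fold -1.95 and -2.65, edgeR adjusted p = 0.0602). The other 5 of the list, Sbk1, Plekhh1, Ank1, Yipf7 and Inka2, had log2 folds of -2.70 to -1.06 on HFD and -1.36 to -0.71 on chow. None of the 12 passed the edgeR test.

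The difference was spread over the nuclei. With each nucleus thinned to 2000 UMIs (115 and 100 shallower Cemip-low nuclei left out), the 12 genes together had a median of 5 UMIs per Cemip-low nucleus in the YAP5SA HFD library, 1 in its responding nuclei and 13 in control HFD nuclei. On chow the medians were 4, 1 and 12. The upper quartile of Cemip-low nuclei was 7 UMIs on either diet, under the lower quartile of control nuclei, which was 9 on HFD and 8 on chow. None of the 12 was seen in 5.77% and 5.62% of Cemip-low nuclei, against 0.455% and 0.258% of control nuclei. At that depth Ppara had a UMI in 20.6% and 23.8% of Cemip-low nuclei, 50.4% and 41.6% of control nuclei, and 0.314% and 0% of macrophage-marker nuclei of the YAP5SA HFD and YAP5SA chow libraries (median depth of the last 3069 and 2991 UMIs before thinning).

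**Figure D2:**
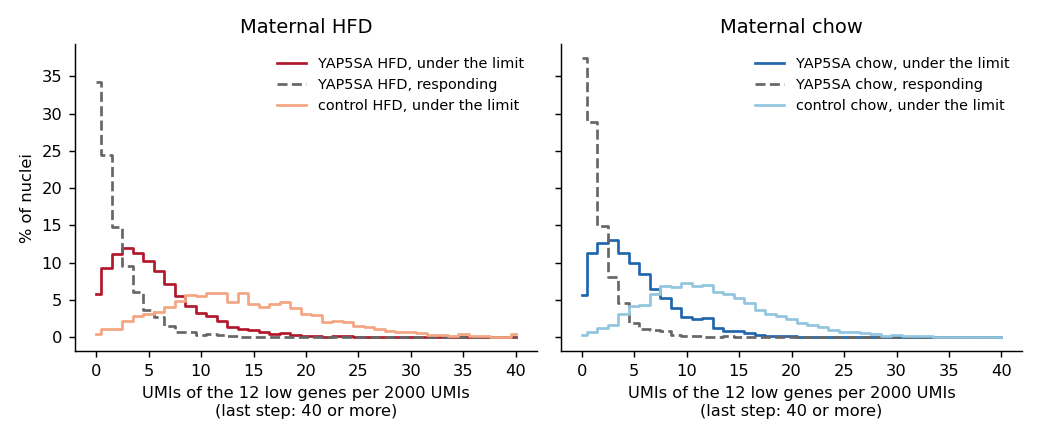
Distribution over nuclei (y axis, percent) of the UMIs of the 12 low genes after thinning to 2000 UMIs per nucleus (x axis), on HFD (left) and chow (right). Solid dark lines are Cemip-low YAP5SA nuclei, dashed lines responding nuclei and light lines control nuclei, and the Cemip-low medians of 5 and 4 UMIs lay between the responding medians of 1 and the control medians of 13 and 12.

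The difference was there in nuclei with no sign of the 4 responder genes. In nuclei with at least 4000 UMIs and none from the 4 genes, Ppara had 128 and 146 CPM in the YAP5SA HFD and YAP5SA chow libraries (1761 and 875 nuclei), against 414 and 294 CPM in control HFD and control chow (2195 and 2355 nuclei). From no UMI to at least 0.5% of UMIs in the 4 genes, Ppara went down to 38.3 and 28.6 CPM in the YAP5SA HFD and YAP5SA chow libraries. Ush1c in nuclei with none of the 4 genes had 86.0 and 99.2 CPM against 264 and 235 CPM, and Kcnn2 390 and 474 CPM against 990.0 and 993 CPM. Plod2, a lysyl hydroxylase that prepares collagen for cross-linking, had 158 and 190 CPM against 40.95 and 41.9 CPM in such nuclei, and 1023 and 1245 CPM at 0.5% or more. Ccn2 had 104 and 176 CPM against 40.8 and 33.5 CPM. Plod2 was chosen after its values were seen.

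**Figure D3:**
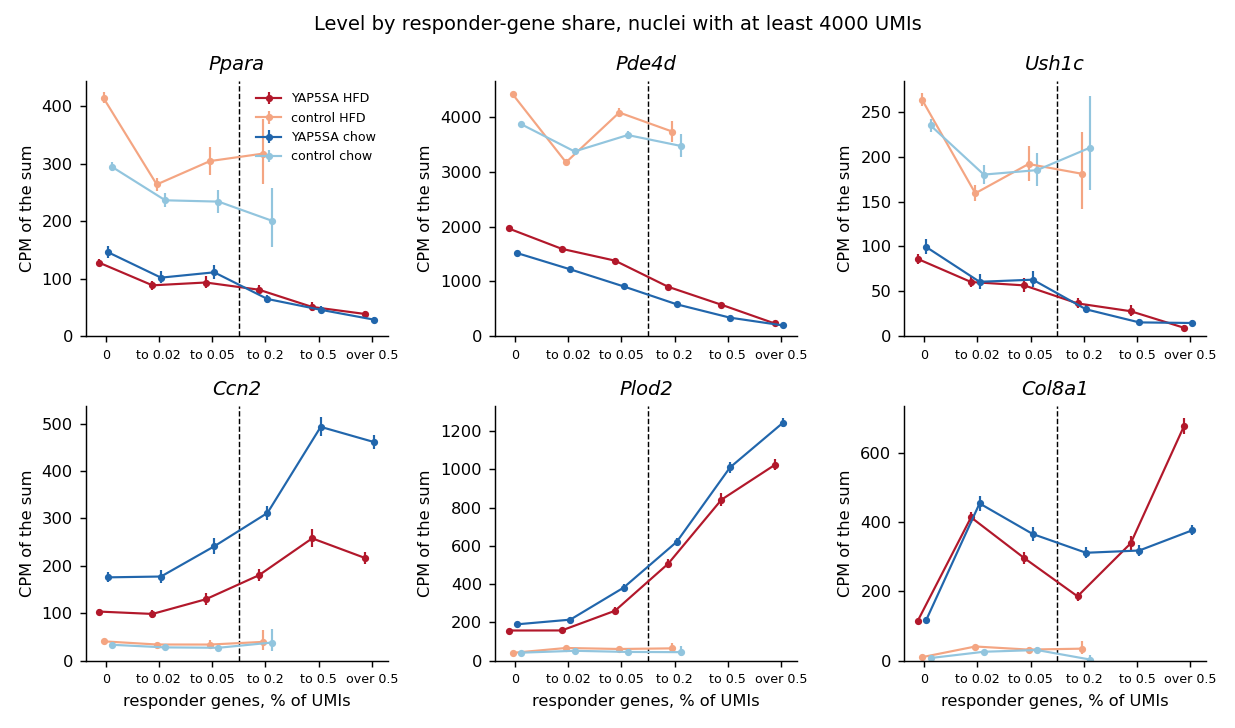
Summed level in CPM (y axis) of 6 genes in cardiomyocyte nuclei with at least 4000 UMIs, by the share of UMIs from the 4 responder genes (x axis, upper bound of each class in percent), for the 4 libraries. Bars are 95% Poisson intervals, classes under 20 nuclei are left out and the dashed line is the 0.05% limit. Left of it the YAP5SA lines lie below the control lines for Ppara, Pde4d and Ush1c and above them for Ccn2, Plod2 and Col8a1. Col8a1 did not rise steadily with the share. In YAP5SA HFD and YAP5SA chow it had 414 and 454 CPM above 0 to 0.02%, and 186 and 312 CPM at 0.05 to 0.2%.

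Target genes of YAP were followed in a published list of 22 curated across tumours, 17 of which had a mean of at least 10 CPM. Of these, 4 passed 1.5-fold upward in Cemip-low nuclei on both diets (3.37% of all genes did) and 0 downward. The median log2 fold was 0.24 on HFD and 0.70 on chow, beside 0.08 and 0.04 for all genes, and 1.51 and 1.99 in responding nuclei over the same control sums. In edgeR 6 of the 21 tested had an unadjusted p under 0.05, all higher in YAP5SA (8.42% of all genes were), and DESeq2 called 4 raised (2.3% of all genes).

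Ccn2, a matricellular protein and a standard readout of YAP, had 111 and 203 CPM in Cemip-low nuclei of the YAP5SA HFD and YAP5SA chow libraries, 225 and 435 CPM in responding nuclei, and 39.6 and 33.2 CPM in control HFD and control chow. Both Cemip-low sums lay above both control sums, and the share of all genes with such a gap was not counted. The log2 fold was 1.49 on HFD (interval 1.39 to 1.58) and 2.61 on chow (2.51 to 2.71), and over both diets 2.03 ± 0.33 (SE, n = 2 per arm, edgeR adjusted p = 0.116). In macrophage-marker nuclei the level was likewise higher in YAP5SA libraries, and whether this is free RNA or their own was not tested. They had 41.1 and 121 CPM of Ccn2 in YAP5SA libraries and 19.4 and 11.5 CPM in control libraries. After thinning to 2000 UMIs, Ccn2 was seen in 18.8% and 28.9% of Cemip-low nuclei and in 9.43% and 19.2% of macrophage-marker nuclei of the YAP5SA HFD and YAP5SA chow libraries. On chow the interval in macrophage-marker nuclei, 12.6 to 27.4%, overlapped that in Cemip-low nuclei, 27.1 to 30.7%, at its edge.

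Ccn1, the sister gene of Ccn2, had 37.4 and 73.8 CPM against 16.6 and 11.4 CPM in control nuclei, and 26.7 and 61.4 CPM in macrophage-marker nuclei of the YAP5SA libraries. Its share of nuclei with a UMI was 7.27% on HFD and 13.4% on chow, with intervals that overlapped those of macrophage-marker nuclei, at 6.60% and 9.17%. At this depth both shares are not told apart from those of macrophage-marker nuclei, which also touches the DESeq2 call of Ccn1. In control HFD and control chow, Ccn1 was seen in 3.22% and 2.45% of control nuclei and in 8.11% and 1.25% of macrophage-marker nuclei. Whether the Ccn1 of macrophage-marker nuclei is free RNA or their own was not tested. Amotl2, an angiomotin that binds and restrains YAP, had 49.9 and 80.7 CPM against 27.6 and 30.7 CPM, and 13.7 and 20.5 CPM in macrophage-marker nuclei of the YAP5SA libraries. Ankrd1, a muscle ankyrin repeat protein, had 1035 and 1653 CPM, 2636 and 3620.5 CPM in responding nuclei, and 805 and 1023 CPM in control nuclei. Lats2, the kinase that YAP induces against itself, had 167 and 145 CPM against 110 and 85.9 CPM. F3, the gene of tissue factor, had 25.01 and 19.7 CPM against 21.3 and 29.9 CPM. Of these only Amotl2, Ccn1 and Ccn2 were called by DESeq2 (adjusted p 0.0194, 2.05e-05 and 9.18e-08).

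Promoters of 2 of these targets are shown because TEAD factors, the partners of YAP, are known to bind the letters CATTCC, read on either strand (GGAATG on the other). Both are from RefSeq, build GRCm38.p6, 250 bases before to 50 after the annotated start, 5′ to 3′ on the gene's strand, with matches in capitals. Ccn1 lies on the minus strand at chr3:145649936-145650235 and Ankrd1 on the minus strand at chr19:36119795-36120094.
Ccn1: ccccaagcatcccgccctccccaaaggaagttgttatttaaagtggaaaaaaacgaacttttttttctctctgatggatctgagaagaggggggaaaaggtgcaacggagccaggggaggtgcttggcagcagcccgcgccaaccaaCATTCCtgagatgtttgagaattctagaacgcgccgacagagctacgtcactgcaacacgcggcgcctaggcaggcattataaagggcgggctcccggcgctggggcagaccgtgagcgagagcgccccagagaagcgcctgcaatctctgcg
Ankrd1: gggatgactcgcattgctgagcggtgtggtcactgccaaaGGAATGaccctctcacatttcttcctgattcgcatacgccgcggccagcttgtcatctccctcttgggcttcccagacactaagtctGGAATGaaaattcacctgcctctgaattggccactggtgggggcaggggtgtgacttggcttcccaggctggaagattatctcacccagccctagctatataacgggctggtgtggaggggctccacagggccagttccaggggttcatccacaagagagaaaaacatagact
Ccn1 had 1 match and Ankrd1 had 2. Such a match was found in 16.6% of 27025 promoters of this length, in 7 of the 15 YAP targets with an entry and in 1 of the 8 low genes with an entry. A match is a run of letters and not a site shown to be bound.

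Genes that were high in responding cardiomyocytes had higher levels in Cemip-low nuclei than in control nuclei, and lower levels than in responding nuclei. A list of 12 such genes, chosen earlier on these libraries without the 4 genes of the rule, had 7 with a mean of at least 10 CPM, and 5 of them passed 1.5-fold above control nuclei on both diets (3.37% of all genes did). On HFD 2 of the 7 passed 2-fold upward (5.25% of all genes did), and on chow 7 of 7 (3.5%). In edgeR 11 of the 12 tested were higher at an unadjusted p under 0.05 (8.42% of all genes were), and DESeq2 called 9 raised (2.3%). As the list was chosen on these libraries, its direction is not independent evidence. The median log2 fold was 0.70 on HFD and 2.33 on chow, and 3.83 and 5.07 in responding nuclei. Without nuclei carrying other cell types' markers, the median in Cemip-low nuclei was 2.22 on HFD and 3.10 on chow, and on chow it was 3.07 with the mean over nuclei. Sema3e, a secreted guidance cue, had 4.64 and 13.9 CPM in Cemip-low nuclei, 326 and 333 CPM in responding nuclei, and 1.26 and 2.36 CPM in control nuclei. Vgll3, a TEAD cofactor, had 11.6 and 14.0 CPM, 254 and 325 CPM in responding nuclei, and 10.2 and 6.21 CPM in control nuclei. Its log2 fold was 0.19 on HFD and 1.17 on chow, but 1.601 and 2.68 without nuclei carrying other cell types' markers, and 1.91 on chow with the mean over nuclei. For both, Cemip-low nuclei were nearer to control nuclei than to responding nuclei, which the rule had set apart by other genes of the response.

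Col8a1 had the highest level of that list in both Cemip-low sums. This short-chain collagen, known from remodelling matrix, had 196 and 235 CPM in Cemip-low nuclei, 393 and 322 CPM in responding nuclei, and 20.2 and 13.04 CPM in control nuclei. Its log2 fold was 3.28 on HFD (interval 3.16 to 3.41) and 4.17 on chow (4.02 to 4.33), and over both diets 3.61 ± 0.26 (SE, n = 2 per arm, edgeR adjusted p = 0.0602, DESeq2 adjusted p = 1.08e-34). On chow it was 3.10 without nuclei carrying other cell types' markers, and a cardiomyocyte limit of 1.6% and the mean over nuclei also lowered it by more than 1.5 times. Macrophage-marker nuclei had 91.1 and 119 CPM in the YAP5SA libraries and 52.6 and 0 CPM in the control libraries. After thinning, Col8a1 was seen in 8.25% and 7.58% of Cemip-low nuclei and in 4.40% and 9.17% of macrophage-marker nuclei of the YAP5SA libraries. On chow its share is therefore not told apart from that of macrophage-marker nuclei. In control nuclei it was seen in 1.99% on HFD and 1.06% on chow. Fibroblast nuclei were not compared for Col8a1, nor for Tnc below. Col12a1, a fibril-associated collagen, had 17.9 and 39.9 CPM in Cemip-low nuclei, 434 and 471 CPM in responding nuclei, and 3.53 and 2.40 CPM in control nuclei. Its log2 fold on HFD was 2.34, and 3.24 without nuclei carrying other cell types' markers.

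No gene was called, so the rule for naming called genes named none. The 12 genes with the highest and the 12 with the lowest smaller fold of the 2 diets, among those past 1.5-fold on both, were chosen after their values were seen. Among the highest, Ccn4, another matricellular protein of the CCN family, had 84.2 and 86.2 CPM in Cemip-low nuclei against 15.1 and 21.4 CPM in control nuclei, and 4.79 and 17.1 CPM in macrophage-marker nuclei of the YAP5SA libraries. Thbs4, a thrombospondin of stressed muscle, had 22.8 and 49.4 CPM against 4.23 and 5.30 CPM. Gfra2, a receptor subunit for the growth factor neurturin, had 23.7 and 13.1 CPM against 3.66 and 3.04 CPM. Several others were long non-coding or predicted genes, of which 8030451A03Rik had 115 and 185 CPM against 15.1 and 6.28 CPM. Both YAP5SA sums lay above both control sums in all of these, which follows largely from how they were chosen.

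Among the lowest, Kcnip2, the subunit that sets the fast transient outward potassium current, had 19.95 and 10.4 CPM in Cemip-low nuclei against 56.9 and 63.9 CPM in control nuclei (log2 fold -1.51 and -2.62, edgeR adjusted p = 0.0935). Srrm4, a splicing factor best known from neurons, had 2.39 and 4.21 CPM against 20.9 and 27.0 CPM. Syt7, a synaptotagmin that senses calcium at membranes, had 15.4 and 19.2 CPM against 50.3 and 52.3 CPM. Pcsk6, the protease that activates corin and other secreted precursors, had 18.1 and 11.5 CPM against 70.9 and 34.3 CPM. Doc2g and Phf24 were at 3.84 to 15.7 CPM in the YAP5SA sums and at 17.8 to 77.9 CPM in the control sums. Hs3st5 and Ush1c were also among these 12. Responding nuclei had less of all of these than control nuclei, at 0.518 to 25.5 CPM.

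**Figure D4:**
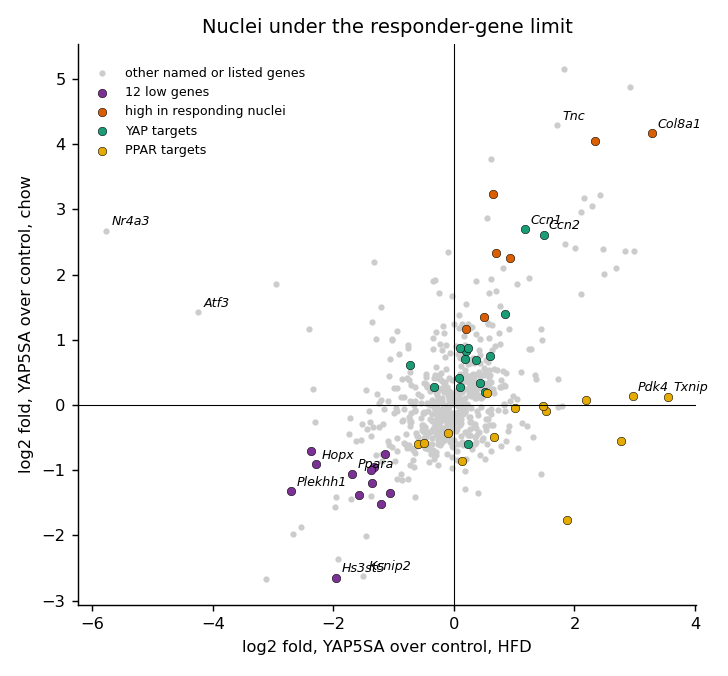
Log2 fold of Cemip-low YAP5SA over control nuclei on HFD (x axis) and on chow (y axis) for the listed and named genes with a mean of at least 10 CPM, without the 10 genes of the rule and sex-linked genes. Each point is a gene, coloured by its list. The 12 low genes lie below 0 on both diets and Ccn2 and Col8a1 above 0 on both. Txnip and Pdk4 lie far above 0 on HFD and near 0 on chow. Their list, coloured as PPAR targets, also holds glucose and lipid switches.

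Energy genes gave 2 kinds of result. Genes of pyruvate entry and the TCA cycle had 25 of 27 at 10 CPM or more. Of these, 2 were at least 1.5-fold lower on both diets and 0 higher (1.92% and 3.37% of all genes were). The medians were -0.17 on HFD and -0.45 on chow. Mpc1, a subunit of the mitochondrial pyruvate carrier, had 71.8 and 75.6 CPM in Cemip-low nuclei against 132 and 157 CPM in control nuclei. Sdhb, a subunit of succinate dehydrogenase, had 34.1 and 39.0 CPM against 69.1 and 60.8 CPM. Of 49 oxidative phosphorylation genes, 37 were lower on HFD and 48 on chow, with medians of -0.18 and -0.32 beside 0.08 and 0.04 for all genes. Only 1 of the 49 was at least 1.5-fold lower on both diets, near the 1.92% of all genes. In edgeR 14 of 27 TCA cycle genes and 19 of 50 oxidative phosphorylation genes were lower at an unadjusted p under 0.05 (6.55% of all genes were). With TMM scaling the medians were -0.31 on HFD and -0.51 on chow for the TCA cycle list, and -0.32 and -0.38 for oxidative phosphorylation.

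A list of PPAR target genes with glucose and lipid switches had different folds in the HFD and chow comparisons. The list's 14 genes at 10 CPM or more had a median of 1.25 on HFD and -0.26 on chow. Txnip, a brake on glucose uptake, had 599 and 388 CPM in Cemip-low nuclei, against 51.2 CPM in control HFD and 355 CPM in control chow. Pdk4, the kinase that shuts pyruvate dehydrogenase, had 429 and 440.0 CPM against 54.9 and 401 CPM. Ucp3, a mitochondrial carrier of fatty acid burning muscle, had 103 and 72.0 CPM against 22.5 and 68.1 CPM. In these 3 genes both YAP5SA sums and control chow lay together and control HFD stood apart. Fatty acid uptake and oxidation genes had medians of 0.43 and -0.49, and Cpt1b, the muscle carnitine palmitoyltransferase, was lower on both (81.5 and 90.7 CPM against 131 and 163 CPM, edgeR adjusted p = 0.163). The difference between the HFD and chow comparisons was not tested, and on chow the YAP5SA and control libraries also differed in Xist.

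Contractile genes lay below 0 on the log2 scale in the median. Of 32 sarcomere and Z disc genes outside the rule at 10 CPM or more, 3 were at least 1.5-fold lower on both diets and 0 higher. Among all genes, 1.92% were lower and 3.37% higher by that measure. The medians were -0.32 on HFD and -0.27 on chow, beside -1.18 and -0.85 in responding nuclei. Myh7b, a slow myosin, had 114 and 109 CPM in Cemip-low nuclei against 221 and 239 CPM in control nuclei (edgeR adjusted p = 0.0935). Synpo2, an actin bundler of the Z disc, had 231 and 212 CPM against 392 and 465 CPM. Mypn and Actn2, both Z disc genes, were lower on HFD (181 against 596 CPM and 1077 against 2851 CPM) with little difference on chow (249.7 against 287 CPM and 1426 against 1524 CPM). Of 17 genes of the fetal and stress programme at 10 CPM or more, 1 passed 1.5-fold upward on both diets and 0 downward (3.37% and 1.92% of all genes did). On HFD 2 were higher and 5 lower by that fold (13.8% and 7.1% of all genes). On chow 8 were higher and 0 lower (9.14% and 5.92% of all genes). The medians were -0.24 on HFD and 0.39 on chow. Nppa, the atrial natriuretic peptide, had 102 and 219 CPM against 66.8 and 57.4 CPM, and Myh7, the beta-myosin of fetal hearts, had 995 and 1083 CPM against 857 and 1074 CPM.

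Calcium handling genes outside the rule had 17 at 10 CPM or more. Of these, 3 passed 1.5-fold downward on both diets and 0 upward (1.92% and 3.37% of all genes did). The medians were -0.22 on HFD and -0.01 on chow. Tmem38a, a potassium channel of the sarcoplasmic reticulum, had 96.8 and 86.4 CPM in Cemip-low nuclei against 190 and 157 CPM in control nuclei (edgeR adjusted p = 0.102). Srl, the calcium-binding protein sarcalumenin, had 248 and 357 CPM against 523 and 544 CPM. Jph2, which ties the cell membrane to the calcium store, had 338 and 532 CPM against 885 and 636 CPM. Of 24 genes of postnatal maturation at 10 CPM or more, 3 passed 1.5-fold downward on both diets and 0 upward (1.92% and 3.37% of all genes did). The medians were -0.24 and -0.41, beside -1.21 and -1.78 in responding nuclei. Hopx and Ckm, given above, belong to this list. Art3, a member of the ADP-ribosyltransferase family, had 318 and 235 CPM against 124 and 178 CPM.

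Of 37 genes of the actin cytoskeleton and of adhesion, 2 passed 1.5-fold upward on both diets and 1 downward (3.37% and 1.92% of all genes did), with medians of -0.01 on HFD and 0.36 on chow. Itga7, the laminin receptor subunit of muscle, had 71.8 and 65.5 CPM in Cemip-low nuclei, 170 and 160 CPM in responding nuclei, and 29.4 and 35.9 CPM in control nuclei. Actg1, the cytoplasmic gamma-actin, had 161 and 274 CPM against 417 and 382 CPM in control nuclei. None of the 16 cardiac transcription factors at 10 CPM or more passed 1.5-fold on both diets, and Tbx20, a T-box factor of the chambers, had 423 and 555 CPM against 1229 and 807 CPM. None of the 14 intercalated disc genes did so, with medians of 0.34 and 0.15. With few genes per list, these counts of 0 are near the shares of all genes (3.37% upward and 1.92% downward).

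Some matrix and secreted genes were higher, and some secreted genes were lower. Of 26 matrix genes at 10 CPM or more, 5 passed 1.5-fold upward on both diets and 0 downward (3.37% and 1.92% of all genes did). The medians were 0.21 on HFD and 0.50 on chow. Of 22 growth factor and cytokine genes at 10 CPM or more, 5 passed 1.5-fold upward on both diets and 1 downward. On HFD alone 7 were higher and 7 lower by that fold (13.8% and 7.1% of all genes), and on chow 8 and 3 (9.14% and 5.92%). The medians of this list were -0.10 on HFD and 0.36 on chow. Tnc, the injury matrix protein tenascin-C, had 91.2 and 241 CPM in Cemip-low nuclei, against 28.0 and 12.3 CPM in control nuclei, and 38.4 and 201 CPM in macrophage-marker nuclei of the YAP5SA libraries. Inhba, an activin subunit, had 22.7 and 32.6 CPM against 5.66 and 6.11 CPM, with 25.3 and 22.2 CPM in macrophage-marker nuclei. Csf1, the growth factor of macrophages, had 39.8 and 29.8 CPM against 16.9 and 16.4 CPM. Ccl2, a monocyte attractant, had 16.6 and 38.8 CPM against 4.69 and 1.08 CPM, but 277 and 937 CPM in macrophage-marker nuclei of the YAP5SA libraries.

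Of 18 Hippo pathway genes and TEAD cofactors at 10 CPM or more, 2 passed 1.5-fold upward on both diets and 0 downward (3.37% and 1.92% of all genes did). Tead4, a DNA-binding partner of YAP, had 12.8 and 19.3 CPM in Cemip-low nuclei, 63.1 and 65.9 CPM in responding nuclei, and 7.25 and 4.49 CPM in control nuclei. Vgll4, which competes with YAP for TEAD, had 158 and 181 CPM, 445 and 461 CPM in responding nuclei, and 92.8 and 95.01 CPM in control nuclei. Circadian and glucocorticoid genes had 1 of 17 higher and 2 lower by that measure (3.37% and 1.92% of all genes). Per3, a clock repressor, had 29.1 and 28.1 CPM against 52.6 and 62.6 CPM.

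**Figure D5:**
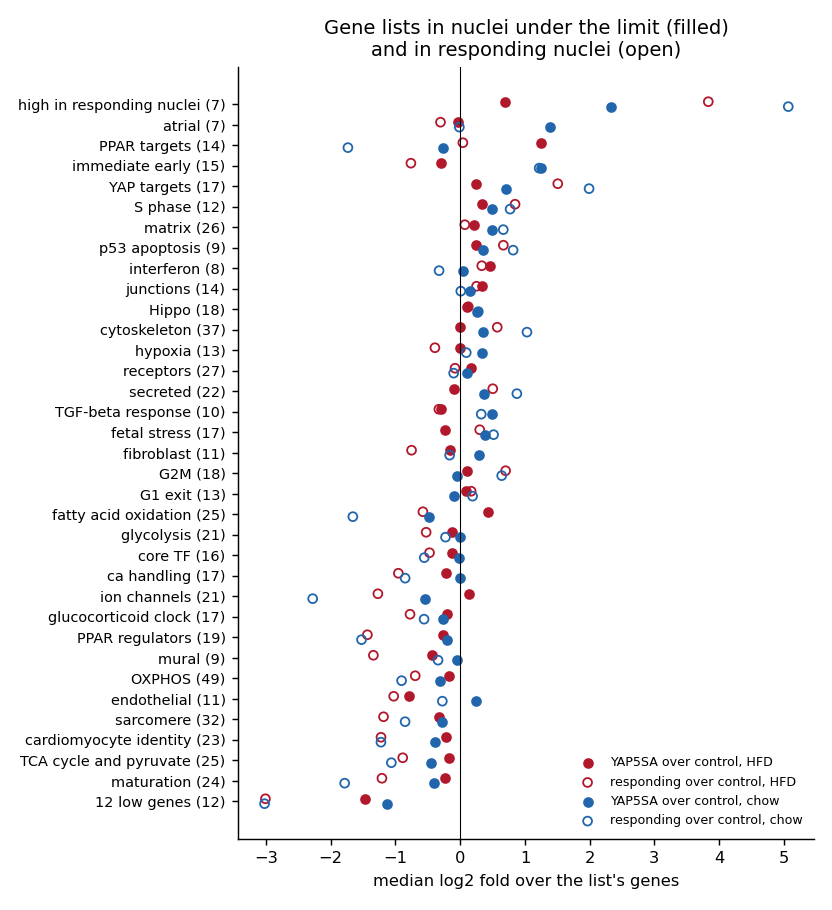
Median log2 fold (x axis) of each gene list over its members with a mean of at least 10 CPM (their number in brackets), for lists with at least 7 such members. Filled points are Cemip-low YAP5SA nuclei over control nuclei and open points responding nuclei over the same control sums, in red for HFD and blue for chow. The 12 low genes were at -1.48 and -1.13 in Cemip-low nuclei.

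Cell cycle genes were given by phase. Of 12 S phase genes at 10 CPM or more, 0 passed 1.5-fold on both diets, near the shares of all genes (3.37% upward and 1.92% downward). Their medians were 0.33 on HFD and 0.49 on chow, and 0.85 and 0.77 in responding nuclei. On HFD 10 of the 12 lay above 0, and on chow 12 of 12, where the median of all genes was itself above 0 (0.08 on HFD and 0.04 on chow). Of 18 mitosis genes at 10 CPM or more, 0 were past 1.5-fold on either diet. Among all genes, 13.8% were higher and 7.1% lower by that fold on HFD, and 9.14% and 5.92% on chow. The mitosis medians were 0.10 on HFD and -0.05 on chow, and 0.70 and 0.64 in responding nuclei. Nuclei with at least 4 UMIs of 28 mitosis genes after thinning to 2000 UMIs made up 4.52% of Cemip-low nuclei on HFD (interval 3.90 to 5.202%) and 3.99% on chow (3.26 to 4.83%), against 10.5% and 11.3% of responding nuclei and 3.79% and 4.57% of control nuclei on HFD and chow. The intervals of Cemip-low and control nuclei overlapped on each diet. Without thinning, the shares were 4.35% and 3.95%, against 3.77% and 4.17% in control nuclei. Such a class is a range of a score, and 0.639% and 0.558% of Cemip-low nuclei had exactly 4 UMIs.

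Atrial nuclei, with at least 2 UMIs of Myl7, Myl4 and Sln at that depth, made up 2.41% and 2.19% of Cemip-low nuclei, against 1.94% of control HFD and 0.465% of control chow nuclei. The 12 atrial markers summed to 423 and 441 CPM against 414 and 243 CPM in control nuclei, where 1 of them was at 0 on chow. Among them Myl7, the atrial light chain, had 16.8 and 25.8 CPM against 20.8 and 6.82 CPM. Nuclei with at least 10 UMIs of Xirp2, an actin-binding repeat protein of the intercalated disc, were 0.196% and 0.837% of Cemip-low nuclei, against 1.17% and 0.207% of control nuclei. The order of YAP5SA and control in the Xirp2 class was opposite on the 2 diets, which was not tested.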

How the data were processed

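Single-nucleus RNA was measured with 10x 3' chemistry in 4 whole-heart libraries. Per the submitters' processing notes, the authors used Cell Ranger 7.1.0 and mm10, and the deposited matrices hold raw UMI counts per gene and nucleus. The annotation they used is not known here. The members and all gene lists were chosen with earlier results of these data known. From the counts, nuclei passing the rule were summed per library (Python 3.11.15, scanpy 1.11.5). CPM are counts scaled to a common total of the sum, and folds add 0.5 counts to both sums. The 10 genes of the rule, mitochondrial genes and 6 added sequences were left out of tests. edgeR 4.0.16 (R 4.3.3) used filterByExpr, TMM and a model of vector alone, so that diet and sex are in the error. It was also run on counts simulated from the means and spreads of the main fit, with known changes added. DESeq2 1.42.0, other limits on nuclei, scalings and filters, Scrublet doublet removal, nuclei with other cell types' markers left out and each library left out in turn were alternatives. Scrublet's automatic call removed 6.68% of nuclei in YAP5SA HFD and 4.51% in control HFD. It gave 0.0115% in YAP5SA chow and 0.0785% in control chow. There the nuclei with the highest scores were removed instead, to a set share of 6.93% and 5.10%. The rule itself removes no doublets. Coordinates are mm10, matched by identifier to GENCODE for 32158 of 32285 genes. Named were the 12 raised and 12 lowered called genes with the largest smaller fold of both diets (0 genes met this), the YAP target, high and low lists, the genes of the rule, and up to 4 genes of each other list. Other genes named were chosen after their values were seen. P-values measure the spread between these libraries. Fibroblast, endothelial, mural, macrophage, epicardial and Schwann, erythroid and atrial markers were among the 39 lists. Some genes are not reported here.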

Additional observations from a re-analysis of the deposited data

Results flagged for a closer look

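The median log2 fold of Cemip-low YAP5SA over control nuclei had opposite signs on HFD and chow in 15 of 38 gene lists, a difference that was not tested. In 4 of them it was at least 0.25 in size on each diet, over at least 8 genes at 10 CPM or more. The list of PPAR targets with glucose and lipid switches had 1.25 on HFD and -0.26 on chow, a gap of 1.51. Fatty acid uptake and oxidation genes had 0.43 and -0.49, a gap of 0.92. TGF-beta response genes had -0.30 and 0.49, a gap of -0.78. Immediate early genes had -0.29 and 1.24, a gap of -1.53. Among the other 11, atrial markers had -0.03 and 1.39, a gap of -1.42, and endothelial markers -0.78 and 0.24, a gap of -1.02. In the immediate early gene Nr4a3, a nuclear receptor, the level was 1.22 CPM in YAP5SA HFD and 67.2 CPM in control HFD, and 9.96 CPM in YAP5SA chow and 1.55 CPM in control chow. Likewise Nr4a1 had 10.5 and 80.6 CPM on HFD, and 33.5 and 9.29 CPM on chow. The chow comparison also differed in Xist, so diet and sex cannot be told apart in these gaps.

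There were 11 genes at least 2-fold apart in opposite directions on the 2 diets, also not tested and with the same limit. Nr4a1, Nr4a3, Atf3, Sik1, Pde10a, Gem, Fhl1, Baiap2l1 and Cyp51 were lower in YAP5SA on HFD and higher on chow. Neb, a giant protein of the thin filament, went the other way, with 145 CPM in YAP5SA HFD and 53.1 CPM in control HFD, and 43.9 CPM in YAP5SA chow and 91.2 CPM in control chow.

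The matrices list an added sequence named nsp13, and what it stands for is not known here. It had 56 UMIs in Cemip-low nuclei of the YAP5SA HFD library and 85 in those of the YAP5SA chow library, against 1 UMI in control HFD nuclei of the same kind and 0 in those of control chow. It was seen in 1.24% and 3.03% of Cemip-low nuclei, 6.26% and 10.8% of responding nuclei, and 1.28% and 1.89% of macrophage-marker nuclei of the YAP5SA HFD and YAP5SA chow libraries, with median depths of 4898 and 4649.5, 6234 and 5757, and 3069 and 2991 UMIs. On chow the interval of the share in Cemip-low nuclei, 2.41 to 3.76%, lay within that of macrophage-marker nuclei, 0.391 to 5.41%. Its level there was 5.50 CPM in Cemip-low nuclei and 5.12 CPM in macrophage-marker nuclei. In nuclei of the YAP5SA libraries not taken as cardiomyocytes, it was seen in 1.05% on HFD (interval 0.785 to 1.38%) and 2.08% on chow (1.62 to 2.61%). The interval in Cemip-low nuclei on HFD was 0.929 to 1.63%. Whether the shares in Cemip-low nuclei are background was not tested. In control chow, 0 of 3957 nuclei allow a share of nuclei with a UMI of up to 0.0758% (3 counts of the total), which does not limit the nuclei that carry the sequence.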

How the results depend on the processing

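The share of cardiomyocyte nuclei under the responder limit depended on that limit. On HFD and chow it was 51.5% and 30.7% with no UMI of the 4 genes, 60.1% and 37.4% under 0.02%, 63.8% and 41.6% with no UMI after thinning to 2000 UMIs, 66.9% and 44.1% from 4000 UMIs and 78.3% and 58.9% at a cardiomyocyte limit of 1.6%, and 69.7% on HFD without nuclei carrying other cell types' markers. The edgeR count of 0 raised and 0 lowered genes became 1 raised with no UMI of the 4 genes, 8 and 5 from 4000 UMIs, 7 and 1 at the limit of 1.6%, 52 and 18 without other cell types' markers, 115 and 63 with no filter, and 395 and 254 in DESeq2. It was 0 and 0 with DESeq2 size factors, library totals and diet as a covariate. Leaving out 1 library gave 0 to 354 raised and 0 to 238 lowered genes: 354 and 156 without control HFD, 239 and 238 without control chow, 8 and 3 without YAP5SA HFD (6 of these 11 sex-linked: Ddx3y, Eif2s3y, Kdm5d, Uty, Tsix and Xist), and 0 and 0 without YAP5SA chow. In these fits the lone library is assumed to vary like the others.

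At a mean of at least 50 CPM, 123 genes were 2-fold higher and 71 lower on HFD, and 85 and 31 on chow. At a mean of at least 1 CPM the counts were 1623, 494, 1009 and 399 in that order. TMM scaling gave 291 lower genes on HFD, and the cardiomyocyte limit of 1.6% gave 207 higher genes on chow. Of 78 single-gene folds under 11 alternatives each, 7 values changed sign: Axl on chow was -0.063 and Dock5 on chow -0.20 without other cell types' markers; with the mean over nuclei, Dock5 on chow was -0.0065 and Ccdc80 on chow -0.012; Ccdc80 on HFD was 0.088 with no UMI of the 4 genes; Ptpn14 on HFD was -0.037 and Rbms3 on HFD -0.044 with TMM. A further 218 of the 858 single-gene values kept their sign but moved past the limit set for an unchanged value. Of 220 values of list medians, 0 changed sign and 13 moved past their limit. The causes were not tested. No paired analysis was possible because each group has 1 library, so no replicate numbers pair samples. The fit with diet as a covariate sets YAP5SA against control within each diet.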
